A study of Mus musculus with 18 samples.

Results

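The 10 genes of neutrophil granules and calprotectin described here were followed through RNA libraries of purified mouse brain microglia. They were taken by name, 10 of the 55414 genes in the deposited count table, and split into 3 lists, called roles below. The 5 specific granule genes were Ltf, Lcn2, Camp, Ngp and Hp, the 3 later genes were Mmp8, Retnlg and Padi4, and the 2 calprotectin genes were S100a8 and S100a9. The word later names a list only and does not place Mmp8, Retnlg or Padi4 in gelatinase granules. The 18 libraries were labelled by sex and by genotype of Chd8, which encodes a chromatin remodeler, and the groups were female WT (4 libraries), female KO (4), male WT (5) and male KO (5). All were brain microglia, and no treatment is named. Every sample title carries the prefix HX, which the labels do not explain. The labels give no strain, age, purification method, number of altered Chd8 copies or driver of the deletion, and they do not say that libraries came from separate animals, so p-values measure only the spread between these libraries. RNA was counted by a bulk form of MARS-seq, in which each captured molecule carries a unique molecular identifier (UMI) and is counted once at its 3′ end. Levels are therefore comparable between genes without a correction for length. They are given as CPM, the usual depth-scaled count, after scaling by TMM, a method that adjusts library sizes for differences in composition.

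Neutrophils build their granules in sequence while they mature in the bone marrow. Azurophil granules with myeloperoxidase and elastase come first, specific granules with lactoferrin and lipocalin follow, and gelatinase granules come later. Calprotectin, the dimer of S100a8 and S100a9, is not a granule protein: it fills the cytosol of mature neutrophils and is made by monocytes too. Resting microglia are not known as a main source of any of these transcripts, whereas blood and marrow of the skull and meninges are rich in neutrophils.

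Every library carried the microglial profile its label names. C1qa averaged 13019 CPM, and the summed level of 10 microglial markers was 33459 ± 1446 CPM (mean ± SD, n = 4) in female WT, 35202 ± 1880 (n = 4) in female KO, 36366 ± 1091 (n = 5) in male WT and 32800 ± 2493 (n = 5) in male KO. Chd8 itself was at 166 ± 24.3 CPM in female WT, 123 ± 10.8 in female KO, 152 ± 12.7 in male WT and 104 ± 8.52 in male KO. A 3′ tag outside the deleted part would still be counted, and the number of altered copies is not given. The source of the Chd8 counts left in KO was not tested. Total UMIs ran from 435838 to 9149144 per library. The ratio of reads to UMIs fell into 3 separate ranges, 1.79 to 1.89 in 8 libraries, 2.94 to 3.12 in 6 and 5.52 to 7.26 in 4. The highest range held female WT replicates 34, 31 and 30, female KO replicate 33 and no male library. Female KO replicate 33 also stood apart by holding 9 UMIs of Y-linked genes beside 10 of Xist, while the other female libraries held 0 to 4 Y-linked UMIs beside 47 to 246 of Xist. Counts of called genes that include it, and the values it moves most, are given with and without it.

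Transcription factors often bind near the start of a gene, and C/EBP-family proteins, Cebpe among them, are known to act on specific granule genes. RefSeq promoters of GRCm38.p6, each 300 bases long, were found for 9 of the 10 genes, all but Hp. The letters TTGCNNAA, a core of C/EBP sites, were searched on both strands, and 6 of the 9 promoters held them, against 10.8% of 32851 promoters of the same length. The windows below are shown because they let the 3 roles be compared directly, with the matched letters in capitals and each sequence read 5′ to 3′ on the strand of its gene.
Lcn2: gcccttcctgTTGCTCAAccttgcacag
Ngp, upstream match: tcctggtttaTTGCCCAAacctccttgc
Ngp, match at the start: ccggcagttcTTGGGCAAggcagtctca
Ltf: ggcaggcctaTTGGGCAAtagggtgggg
Mmp8: taggcagaagTTGCTCAAgatgtagctt
Retnlg: agctTTCTGCAAggcattccag
S100a9: gtaggctgtcTTGCTTAAgatttgggcg
They lie at chr2:32387938-32387965 (minus strand) for Lcn2, chr9:110419660-110419687 and chr9:110419787-110419814 for Ngp, chr9:111019207-111019234 for Ltf, chr9:7558400-7558427 for Mmp8, chr16:48872358-48872379 for Retnlg and chr3:90695940-90695967 (minus strand) for S100a9. RefSeq and GENCODE starts differ for some genes, and the Lcn2 window and the second Ngp window lie inside the longer GENCODE span of their gene. The match is on the other strand in Ltf, Retnlg and the start of Ngp. Lcn2 and Mmp8, a specific granule gene and a later one, hold the same 8 letters. The core GAGGAAGT of PU.1, the master factor of myeloid cells, was found in 2 of the 9 promoters, against 3.20% of all promoters. It stands on the other strand in both, with no base shared with a C/EBP match.
Mmp8: aactagcacaACTTCCTCattacacaca
S100a8: caacactcccACTTCCTCagactcagaa
These windows are at chr9:7558198-7558225 and chr3:90668889-90668916. Matches are descriptions of letters, not of bound sites.

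Levels of all 10 genes were ordered the same way by group mean, highest in female WT, then female KO, male WT and male KO. All 4 female WT libraries lay above all 10 male libraries for each of the 10 genes. Female WT replicate 30 was the highest of the 18 libraries for every one. How many of all tested genes show the same order of means, separation or highest library was not counted. In bulk RNA, fewer cells of a type and less RNA per cell cannot be told apart. The values follow by role, female replicates in the order 34, 39, 31, 30 for WT and 33, 16, 1, 7 for KO, and male replicates in the order 13, 37, 10, 11, 14 for WT and 36, 6, 9, 17, 40 for KO.

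**Figure D1:**
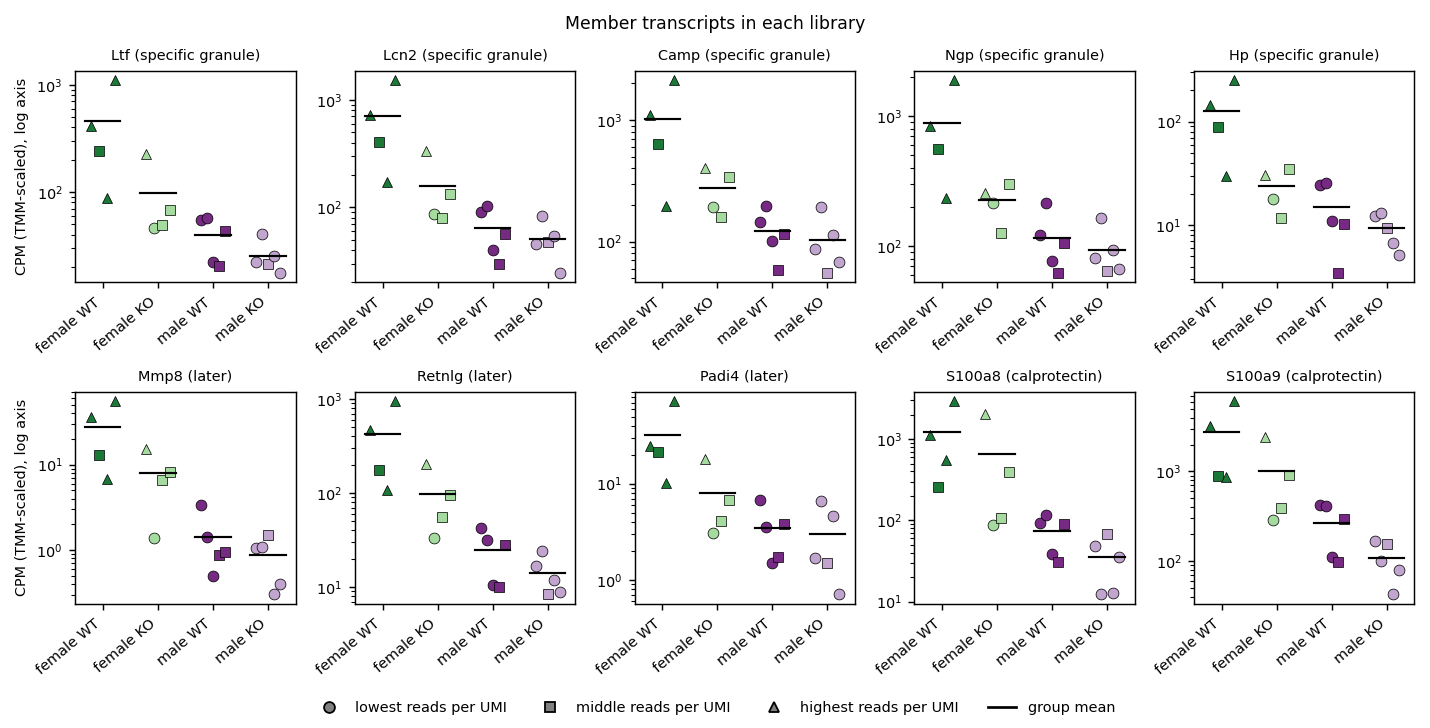
Level of each of the 10 genes in each library (TMM-scaled CPM on a log10 axis), 1 point per library, by group, with the shape giving the range of reads per UMI and a line at each group mean. All 4 female WT libraries lie above all 10 male libraries in every panel, and female KO libraries lie between or overlap both. How many of all tested genes show this separation was not counted.

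Among the specific granule genes, Ltf encodes lactoferrin, which binds iron (ENSMUSG00000032496, chromosome 9, 111019271 to 111042767, plus strand of GRCm38, GENCODE M21). It was at 409.8, 242, 88.2 and 1102 CPM in female WT and at 226, 45.7, 49.4 and 68.2 CPM in female KO. Male WT libraries held 54.5, 57.0, 22, 20.3 and 42.7 CPM, and male KO libraries 22.4, 40.8, 21.4, 25.2 and 17.6 CPM. Female KO replicate 33 lay above the lowest female WT library, and the other 3 lay below it. Lcn2 encodes lipocalin 2, which takes bacterial siderophores out of reach (ENSMUSG00000026822, chromosome 2, 32384633 to 32388252, minus strand). Its female WT libraries were at 719, 407, 172.5 and 1518 CPM, and its female KO libraries at 334.5, 86.9, 79.8 and 133 CPM. Males carried 91.1, 103, 40.0, 29.5 and 56.4 CPM of Lcn2 in WT and 46.0, 82.8, 47.3, 54.0 and 24.6 CPM in KO. Again only replicate 33 of the female KO reached into the female WT range.

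Camp encodes the precursor of cathelicidin, an antimicrobial peptide (ENSMUSG00000038357, chromosome 9, 109847379 to 109849617, minus strand), and was the most abundant specific granule gene, with a mean of 349 CPM over the 18 libraries. It was measured at 1108, 635.5, 198 and 2123 CPM in female WT and at 401, 191, 158 and 342 CPM in female KO. Levels of Camp in males were 145, 195, 102, 58.8 and 114.5 CPM in WT and 87.3, 191, 55.3, 114 and 67.6 CPM in KO. The female WT library with the least Camp, replicate 31, lay below 2 female KO libraries and just above the highest male one. Ngp encodes neutrophilic granule protein, a cathelicidin-related protein (ENSMUSG00000032484, chromosome 9, 110419747 to 110423012, plus strand). It was at 835, 563, 236 and 1881 CPM in female WT and at 257, 214.5, 126 and 303 CPM in female KO. Males were at 121, 214, 77.1, 62.5 and 106.5 CPM in WT and at 81.8, 165, 64.2, 93.9 and 66.6 CPM in KO, so female KO and male libraries overlapped. Hp encodes haptoglobin, which binds free haemoglobin and is stored in specific granules as well as made by the liver (ENSMUSG00000031722, chromosome 8, 109575128 to 109579172, minus strand). Hp was the least abundant of the 5, at 143, 88.0, 29.8 and 251 CPM in female WT and 30.9, 17.9, 11.8 and 35 CPM in female KO. Its male levels were 24.2, 25.5, 11.0, 3.47 and 10.2 CPM in WT and 12.2, 13.1, 9.46, 6.75 and 5.18 CPM in KO. Replicates 33 and 7 of the female KO overlapped female WT for Hp.

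Of the later genes, Mmp8 encodes neutrophil collagenase (ENSMUSG00000005800, chromosome 9, 7558456 to 7568485, plus strand) and had the fewest counts, with 1 to 71 UMIs per library. It was at 35.8, 12.8, 6.74 and 55.0 CPM in female WT and at 15.4, 1.40, 6.70 and 8.29 CPM in female KO. Male libraries held 3.36, 1.42, 0.501, 0.869 and 0.957 CPM in WT and 1.05, 1.09, 1.49, 0.307 and 0.406 CPM in KO. With 1 to 10 UMIs in each male library, differences of Mmp8 among males were not resolved at this depth. Retnlg encodes resistin-like gamma, a secreted protein of neutrophils (ENSMUSG00000022651, chromosome 16, 48872621 to 48874496, plus strand). It reached 466, 174.5, 108 and 943 CPM in female WT and 203, 33.7, 55.6 and 96.1 CPM in female KO. Its male levels were 42.0, 31.9, 10.5, 10.1 and 28.1 CPM in WT and 16.9, 24.1, 8.46, 12 and 8.94 CPM in KO, so that all 4 female KO libraries lay above all 5 male KO libraries. Padi4 encodes the enzyme that turns histone arginine into citrulline during the release of neutrophil extracellular traps (ENSMUSG00000025330, chromosome 4, 140745865 to 140774236, minus strand). Padi4 was at 24.6, 21.6, 10.1 and 72.0 CPM in female WT and at 18, 3.08, 4.12 and 6.75 CPM in female KO. In males it was at 6.73, 3.54, 1.5, 1.74 and 3.83 CPM in WT and at 1.69, 6.56, 1.49, 4.60 and 0.711 CPM in KO. These rest on 3 to 93 UMIs per library, and female KO overlapped both male groups.

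Of the calprotectin genes, S100a9 had the highest mean of the 10, and S100a8 the widest range over libraries, 235-fold. S100a9 (ENSMUSG00000056071, chromosome 3, 90692632 to 90695721, minus strand) was at 3247, 879.6, 859.9 and 6063 CPM in female WT and at 2416, 289, 394.5 and 906 CPM in female KO. Males held 418, 413, 112, 98.5 and 294 CPM in WT and 168.5, 99.5, 155, 43.0 and 78.9 CPM in KO, and male KO lay below all female KO. S100a8 (ENSMUSG00000056054, chromosome 3, 90668978 to 90670035, plus strand) was at 1122, 258, 557 and 2911 CPM in female WT and at 2030, 87.2, 106 and 393 CPM in female KO. Its male levels were 92.5, 116, 38.5, 30.4 and 90.9 CPM in WT and 47.9, 12.4, 68.7, 12.6 and 35.6 CPM in KO. Female KO replicate 33 held more S100a8 than 3 of the 4 female WT libraries, the only gene of the 10 for which this was so. No annotated gene overlaps any of the 10 in GENCODE M21, so their counts are not shared with a neighbour.

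All 10 genes passed the filter on low counts and were tested in a single edgeR quasi-likelihood model of 10948 genes. The spread between replicates was wide for them. The biological coefficient of variation, the replicate spread beyond counting error, was 43.7% for Ngp to 73.9% for S100a8, where the median gene had 15.8%. It was above that of 95.8% to 99.4% of tested genes.

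The first comparison was of the sexes in WT. All 10 genes were higher in females (edgeR adjusted p from 4.95e-05 to 0.00151), where 10.3% of all tested genes were called higher. All 10 were also free of overlap between the groups, as were 9.41% of tested genes. Specific granule genes rose by log2 fold changes of 2.91 ± 0.44 (SE) for Ngp to 3.54 ± 0.53 for Ltf, that is 7.54-fold to 11.6-fold. Among the later genes, Mmp8 rose by 4.15 ± 0.63 and Retnlg by 4.08 ± 0.56 on the log2 scale, 17.7-fold and 16.9-fold, and Padi4 by 3.18 ± 0.58. Calprotectin rose by 4.04 ± 0.79 for S100a8 and 3.37 ± 0.64 for S100a9. The median of the 10 was 3.41, against 0.01 over all tested genes. Without female WT replicate 30 all 10 were still called (edgeR), against 6.39% of tested genes, with smaller changes, Ltf at 2.55, Ngp at 2.18, Retnlg at 3.22 and S100a8 at 3.08.

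The sex difference was measured again with the ranges of reads per UMI in view, since no male library is in the highest range. Among the 6 libraries of the middle range, the 3 females (WT 39, KO 1 and KO 7) lay above the 3 males (WT 11, WT 14 and KO 9) for all 10 genes, with both genotypes pooled. In the lowest range the only female, KO replicate 16, lay above all 7 males for 1 gene, Ngp, and above the 4 male KO for 9, all but Padi4. The share of all tested genes with these orders was not counted. The 10 genes also varied together over the 18 libraries (Pearson r of pairs 0.790 to 0.991), so they are not separate observations. With the range as a covariate, 6 of the 10 were called in WT (edgeR), against 1.74% of tested genes called higher in that fit, the 5 specific granule genes and Retnlg, with Ltf at 2.41 and Hp at 2.95. S100a8 was then at 1.13 (edgeR adjusted p = 0.479) and S100a9 at 1.5 (edgeR adjusted p = 0.307). Without the 4 libraries of the highest range, which leaves female WT replicate 39 alone in its group and assumes that it varies like the others, 6 genes were called too, the same ones by name, against 1.93% of tested genes.

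The sexes were also compared in KO. Of the 10, 4 were higher in females (edgeR), against 4.27% of tested genes. These were S100a8 at 4.13 ± 0.82 (edgeR adjusted p = 0.00492), S100a9 at 3.17 ± 0.64 (0.00567), Retnlg at 2.57 ± 0.60 (0.0130) and Mmp8 at 2.98 ± 0.73 (0.0177). None of the 5 specific granule genes was called (edgeR), and DESeq2 called 1, against 5.59% of tested genes called higher by DESeq2. All 5 had an unadjusted edgeR p under 0.05, a threshold at which the share of all tested genes was not counted. Their log2 fold changes ran from 1.25 ± 0.44 for Ngp to 1.66 ± 0.57 for Ltf, with edgeR adjusted p from 0.0811 to 0.138. Padi4 was at 1.08 ± 0.69 (edgeR adjusted p = 0.353). Ltf, Retnlg, S100a8 and S100a9 had no overlap between female KO and male KO, as did 4.53% of tested genes. Without female KO replicate 33, the same 4 genes were called, against 3.67% of tested genes, with S100a8 at 2.49 (edgeR adjusted p = 0.0284) and S100a9 at 2.29 (0.0254). With the range of reads per UMI as a covariate, S100a8 at 2.24 (edgeR adjusted p = 0.0474) and S100a9 at 2.21 (0.0445) were called, against 1.63% of tested genes, and Retnlg (0.0554) and Mmp8 (0.127) were not. Mmp8 also lost its call without male KO replicate 40 (edgeR adjusted p = 0.0613). With only the 2 KO groups in the fit, Mmp8 did not pass the filter on low counts and was not tested. Without female KO replicate 7, S100a8 and S100a9 alone were called, against 1.45% of tested genes. Without replicate 16, 7 genes were called, Ltf, Lcn2 and Camp joining the 4, against 7.95% of tested genes. Whether the sex difference of calprotectin differs from that of the specific granule genes was not tested.

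**Figure D2:**
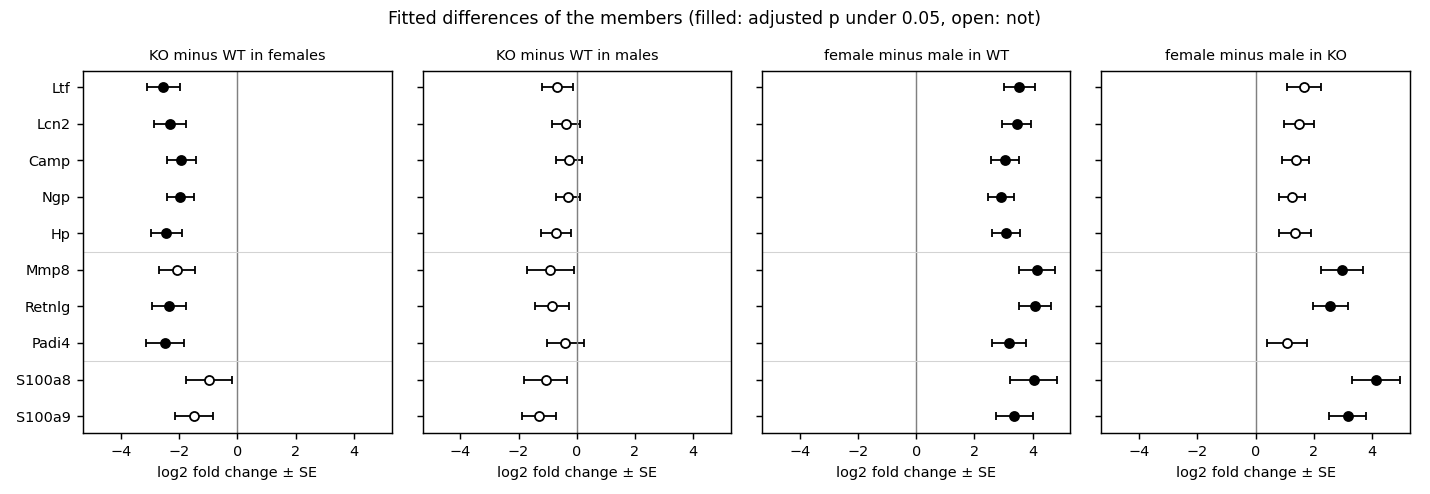
Log2 fold change of each gene (points) with its SE (bars), in 4 comparisons, filled where the edgeR adjusted p was under 0.05. Female minus male in WT lies between 2.91 and 4.15 for all 10 genes, and KO minus WT in females lies below 0 for all 10.

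The KO and WT females were compared next. These values share the female WT libraries with the sex comparison in WT. In KO, 7 of 10 genes were lower (edgeR), against 1.83% of tested genes called lower. They were all 5 specific granule genes and 2 of the 3 later genes, and neither of the 2 calprotectin genes. DESeq2 called 6, against 2.09% of tested genes called lower by DESeq2. They were the same genes but for Retnlg (DESeq2 adjusted p = 0.0577). Hp fell by 2.45 ± 0.54 on the log2 scale (5.46-fold, edgeR adjusted p = 0.0185), from 128 ± 94.1 CPM (SD, n = 4) in WT to 23.9 ± 10.8 CPM (n = 4) in KO. Ltf fell by 2.55 ± 0.58 (5.84-fold, edgeR adjusted p = 0.0236), Lcn2 fell by 2.31 ± 0.55 (0.0278), Ngp fell by 1.97 ± 0.47 (0.0281) and Camp fell by 1.93 ± 0.51 (0.0422). Retnlg fell by 2.35 ± 0.58 (edgeR adjusted p = 0.0332) and Padi4 fell by 2.49 ± 0.64 (0.0389). Mmp8 was at -2.08 ± 0.61 and did not pass (edgeR adjusted p = 0.0750). S100a8 was at -0.98 ± 0.78 (edgeR adjusted p = 0.604) and S100a9 at -1.50 ± 0.65 (0.258). The median of the 10 was -2.20, against 0.01 over all tested genes. For no gene were the 2 groups free of overlap, because KO replicate 33 lay above WT replicate 31 for all 10, whereas 2.84% of tested genes were free of overlap with KO lower.

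This difference depended on single libraries. All 10 genes were called lower without female KO replicate 33 (edgeR), where 4.24% of tested genes were, with S100a8 at -2.62 (adjusted p = 0.0308) and S100a9 at -2.37 (0.0351). No gene was called without WT replicate 30, where 0.403% of tested genes were called lower. Ltf was then at -1.55 (edgeR adjusted p = 0.159) and S100a8 at -0.04 (0.999). None was called without KO replicate 16, against 0.598% of tested genes, or without KO replicate 1, against 0.622%. Hp alone passed without KO replicate 7, against 0.474% of tested genes. Ltf and Hp passed without WT replicate 34, against 0.934%. With the range of reads per UMI as a covariate no gene was called, against 0.539% of tested genes called lower, Ltf being at -1.77 (edgeR adjusted p = 0.112) and Hp at -2.15 (0.0991). Within the middle range, WT replicate 39 lay above both KO libraries for 8 of the 10 genes, all but S100a8 and S100a9. Within the highest range, KO replicate 33 lay between WT replicate 31 and the other 2 WT libraries for 9 of the 10, all but S100a8. Neither range holds enough libraries for a test of its own, and the share of all tested genes in either order was not counted.

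**Figure D3:**
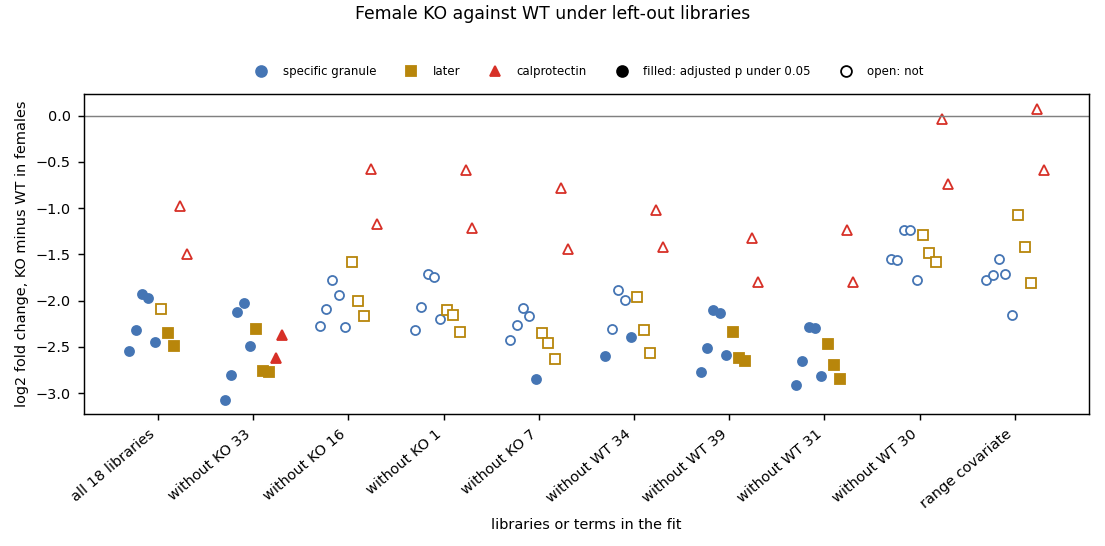
Log2 fold change of KO against WT in females for each gene (points, shaped by role) with all 18 libraries, without each female library in turn, and with the range of reads per UMI as a covariate. Filled points have an edgeR adjusted p under 0.05, and their number runs from 0 to 10. Ltf runs from -3.07 without KO replicate 33 to -1.55 without WT replicate 30.

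In males the genes did not separate by genotype. None of the 10 was called (edgeR), against 6.24% of tested genes in either direction. DESeq2 called none either, against 7.56% of tested genes. S100a9 alone of the 10 had an unadjusted edgeR p under 0.05, and the share of all tested genes at that threshold was not counted. All 10 log2 fold changes were below 0, from -0.26 ± 0.45 for Camp to -1.30 ± 0.59 for S100a9 (edgeR adjusted p = 0.240), with a median of -0.69. S100a9 was at 267 ± 156 CPM (SD, n = 5) in WT and 109 ± 52.5 CPM (n = 5) in KO, and 2 WT libraries, replicates 10 and 11, lay inside the KO range. Within the lowest range of reads per UMI, which holds 3 WT and 4 KO males, 9 genes were tested, all but Mmp8, and 3 passed as lower in KO (edgeR), against 4.86% of tested genes, S100a9 at -1.69 (adjusted p = 0.0213), S100a8 at -1.53 (0.0296) and Hp at -1.22 (0.0401).

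The effect of KO was then compared between the sexes with an interaction term. None of the 10 genes was called (edgeR), against 0.237% of tested genes. DESeq2 called none either, against 0.758% of tested genes. Of the 10, 6 had an unadjusted edgeR p under 0.05, the 5 specific granule genes and Padi4. The share of all tested genes at that unadjusted threshold was not counted. Female minus male effects ran from -1.95 to -1.66 on the log2 scale for the specific granule genes, with Lcn2 at -1.95 ± 0.72 (edgeR adjusted p = 0.406). For S100a8 it was 0.10 ± 1.07 and for S100a9 -0.20 ± 0.86, each with an SE larger than the value. Without female KO replicate 33 none of the 10 was called either (edgeR), against 0.412% of tested genes, with S100a8 at -1.54, S100a9 at -1.07 and Lcn2 at -2.43 (edgeR adjusted p = 0.15).

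The share each of the 10 genes took of their summed UMIs varied between libraries. Together they took 0.0317% of all UMIs in male WT replicate 11 and 1.59% in female WT replicate 30 (95% Wilson interval 1.57 to 1.61%, counting error only). Calprotectin made up 15.2% of the UMIs of the 10 genes in male KO replicate 17 (Wilson interval 13.3 to 17.3%), 17.6% in male KO replicate 6 and 74.9% in female KO replicate 33 (73.1 to 76.7%). S100a9 was the most abundant of the 10 in 16 libraries, and Camp was in those 2 male KO libraries. Specific granule genes kept narrower proportions among themselves. The ratio of Ngp to Camp UMIs ran from 0.641 to 1.19 over the 18 libraries, a 1.86-fold range, that of Lcn2 to Camp spanned 2.4-fold and that of Ltf to Camp 2.83-fold. Retnlg to Camp spanned 5.27-fold, from 0.103 to 0.545, and calprotectin to the sum of specific granule genes spanned 18.8-fold, from 0.189 to 3.56. The 3.56 is female KO replicate 33, and over the other 17 libraries that ratio reached 1.96, a 10.3-fold range, while calprotectin reached 62.5% of the UMIs of the 10 genes and Ngp to Camp spanned 1.58-fold.

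**Figure D4:**
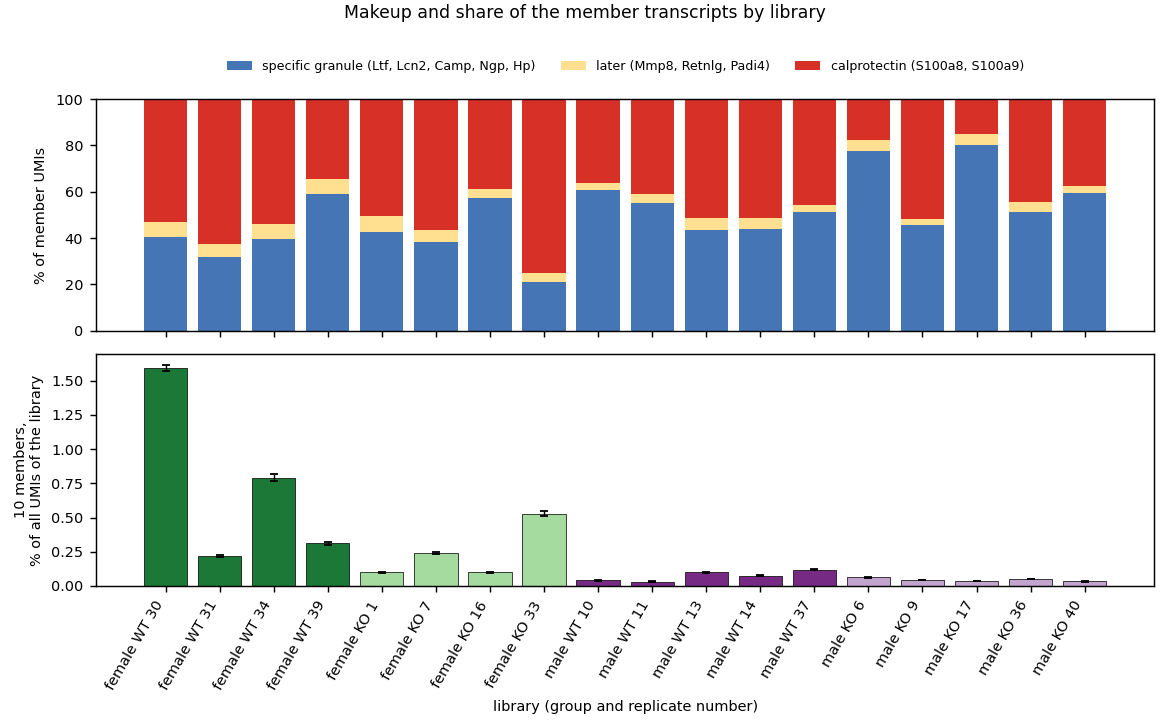
Share of the UMIs of the 10 genes taken by specific granule, later and calprotectin genes in each library (upper panel, percent of their UMIs, stacked), and the share of all UMIs of the library taken by the 10 genes (lower panel, percent, bars with 95% Wilson intervals, coloured by group). Calprotectin takes 15.2% in male KO replicate 17 and 74.9% in female KO replicate 33.

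Calprotectin was itself uneven. S100a8 was 45.7% of the S100a8 and S100a9 UMIs in female KO replicate 33 (Wilson interval 43.3 to 48.0%) and 39.3% in female WT replicate 31 (37.4 to 41.2%), and in every other library it was 32.4% or less. Its lowest share was 11.1% in male KO replicate 6 (8.03 to 15.1%). Over the 18 libraries, log2 CPM of pairs of specific granule genes had Pearson r of 0.946 to 0.991 (10 pairs). Pairs of a specific granule and a later gene had 0.888 to 0.977 (15 pairs), pairs of a calprotectin and a specific granule gene 0.803 to 0.932 (10 pairs), and S100a8 with S100a9 had 0.973. These are descriptions over libraries that also differ in sex and depth.

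Other genes of the neutrophil program were read from lists. Proteins of other granules were represented by 8 genes, 6 of them tested, and 5 fell in female KO (edgeR). Among them Cd177, a surface protein held in specific granules, fell by 2.42 ± 0.55 on the log2 scale, and Pglyrp1, a peptidoglycan-binding protein, fell by 2.31 ± 0.55. Mmp9, the gelatinase of the later granules, fell by 2.29 ± 0.61 and Chil3, a chitinase-like protein also made by monocytes, fell by 1.86 ± 0.48. All 6 were higher in females than males in WT and 1, Chil3, in KO. Without female KO replicate 33, 5 of 7 tested fell in female KO and 1 was higher in KO females than KO males (edgeR). Of 15 genes of the neutrophil surface and cytosol, 8 were tested. In female KO 4 passed as lower, Ly6g, which defines mouse neutrophils, at -2.22 ± 0.57, Wfdc21 at -2.35 ± 0.50, Mcemp1 at -1.69 ± 0.38 and Hdc, the histamine-forming enzyme, at -2.20 ± 0.54. All 8 were higher in WT females than in WT males, and Ly6g and Wfdc21 were in KO. Without female KO replicate 33, 6 of 11 tested passed as lower in female KO, and none passed between the KO sexes, where Ly6g had an edgeR adjusted p of 0.0693 and Wfdc21 of 0.0864. Ly6g was rare, at 14.0 ± 14.0 CPM in female WT, 3.50 ± 1.48 in female KO, 1.49 ± 0.578 in male WT and 0.732 ± 0.620 in male KO. Csf3r, the receptor for granulocyte colony-stimulating factor, was at 602 to 960.5 CPM in every library and differed between WT sexes by 0.32 ± 0.11 (edgeR adjusted p = 0.0456).

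Azurophil granule genes, the earliest of the sequence, were low. Of 6, only Elane (elastase) and Prtn3 (proteinase 3) were tested, and Ctsg, Prss57 and Ms4a3 had at most 18 UMIs each over all 18 libraries. The 6 summed to 17.8 ± 16.7 CPM in female WT, 28.3 ± 31.7 in female KO (12.9 ± 9.00, n = 3, without replicate 33, which held 74.6), 2.83 ± 2.79 in male WT and 6.43 ± 5.52 in male KO. In KO against WT females, Elane was at 0.43 ± 1.01 (edgeR adjusted p = 0.898) and Prtn3 at 0.84 ± 0.75 (0.655), and without KO replicate 33 Elane was at -0.71 (0.707) and Prtn3 at 0.63 (0.701). Neither passed, and whether they differ from the specific granule genes was not tested. In WT females against males Elane rose by 4.09 ± 1.32 (edgeR adjusted p = 0.0368).

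Of 6 tested factors of the granulocyte program, Cebpe, which is required to make specific granules, was at 22.1 ± 15.3 CPM in female WT, 6.58 ± 6.36 in female KO, 3.37 ± 2.06 in male WT and 3.60 ± 3.06 in male KO. It was higher in WT females than males by 2.64 ± 0.60 (edgeR adjusted p = 0.00457), and at -2.13 ± 0.66 in female KO it did not pass (0.0868). Cebpa, which microglia also express, was lower in WT females than males by -0.61 ± 0.12 (edgeR adjusted p = 0.00105). No factor was called in the KO comparisons. When female KO replicate 33 was left out, Cebpe passed as lower in female KO at -2.42 (edgeR adjusted p = 0.0337) and Cebpa as higher at 0.44 (0.0241). Receptors of the encoded proteins include Tlr4, through which calprotectin signals, and Cd163, the scavenger receptor for haptoglobin bound to haemoglobin. Of 7 tested, none was called in female KO, with or without replicate 33, and Cd163 was higher in WT females than males by 2.93 ± 0.40 and in male KO than male WT by 1.97 ± 0.36 (edgeR adjusted p = 4.37e-05 and 0.00142). Padi2, the only other tested member of the Padi4 family, was higher in females by 0.88 ± 0.20 in WT and 0.72 ± 0.20 in KO (edgeR adjusted p = 0.00491 and 0.0308), and without female KO replicate 33 the KO value was 0.65 (0.06).

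Markers of other blood and border cells moved with some of these comparisons. The 9 monocyte markers summed to 604 ± 221 CPM in female WT (280 to 770.2), 221 ± 82.5 in female KO (139 to 334.5), 78.9 ± 7.45 in male WT (70.1 to 89.5) and 89.2 ± 22.8 in male KO (64.7 to 122). Of 8 tested, 7 were higher in WT females than males and 4 in KO, and 3 passed as lower in female KO (edgeR), Ly6c2 at -2.37 ± 0.40, Napsa at -1.61 ± 0.29 and S100a6 at -1.72 ± 0.34. Leaving out female KO replicate 33, the female KO sum was 184 ± 40.9 CPM (n = 3), 4 passed as lower in female KO, S100a4 joining at -1.72, and 4 were still higher in KO females than KO males (edgeR). Vcan, also in the list, had at most 18 UMIs over all libraries. The 6 border-associated macrophage markers summed to 213 ± 71.4 CPM in female WT (117 to 269), 178 ± 36.3 in female KO (139 to 219.8), 40.7 ± 8.46 in male WT (27.2 to 48.1) and 171 ± 33.8 in male KO (136 to 217). Of these, 5 of 6 were higher in WT females than males and 5 of 6 in male KO than male WT, a comparison in which none of the 10 neutrophil genes passed. Erythroid markers summed to 86.0 ± 112 CPM in female WT, 192 ± 129 in female KO (139 ± 88.2 without replicate 33), 73.5 ± 66.6 in male WT and 277 ± 149 in male KO, in another order than the neutrophil genes. The 11 lymphocyte markers summed to 1029 ± 149 CPM in female WT, 996 ± 97.2 in female KO, 1025 ± 99.7 in male WT and 1178 ± 84.9 in male KO. The most abundant was Ighm, at 725 to 1195 CPM. Cd3d, Cd3e, Cd3g, Cd79a, Ms4a1 and Klrb1c had at most 18 UMIs each over all libraries. Of 3 tested, 1 was higher in WT females than males (edgeR), and none passed in the other comparisons. The part of monocytes, border-associated macrophages and blood in the differences of the 10 genes was not tested.

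**Figure D5:**
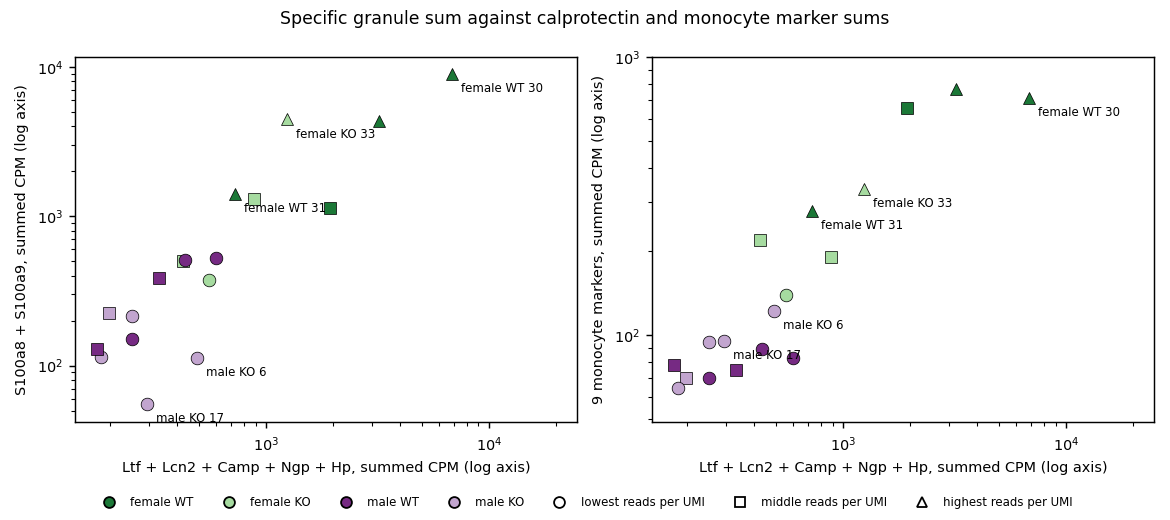
Summed level of the 5 specific granule genes (x axis) against calprotectin (left panel) and 9 monocyte markers (right panel) in each library, in TMM-scaled CPM on log10 axes, coloured by group, with the shape giving the range of reads per UMI. The female WT libraries lie at 280 to 770.2 CPM of monocyte markers and the male libraries at 64.7 to 122 CPM, and male KO replicates 6 and 17 lie low in calprotectin for their specific granule level.

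The genes most like the specific granule genes over the 18 libraries, by Pearson r of log2 CPM with the mean of the 5, were Cd177 (0.986), Pglyrp1 (0.977), Wfdc21 (0.976), Mmp9 (0.957) and Mirt1 (0.954). Mcemp1, Msrb1, Hdc, Chil3 and I830127L07Rik followed at 0.949 to 0.95. With the mean of the 3 later genes, the most alike were Pglyrp1 (0.986), Cd177 (0.978), Rab44 (0.975), Wfdc21 (0.975) and Mmp9 (0.969). S100a9 stood at 0.916 and S100a8 at 0.849 with the specific granule mean, below each of these. The libraries share sex and depth as sources of such likeness, so these values are descriptions.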

How the data were processed

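Per the labels' protocols, RNA was extracted with a Qiagen kit and made into bulk MARS-seq libraries. The authors deposited whole-number counts per gene, as reads and as UMI-corrected counts, neither scaled for depth. Tools named in the submitters' processing notes are HTSeq, STAR and cutadapt, with mm10 as build. Their versions, the annotation and the UMI method are not stated there. In each table, 16 columns matching no sample here were not used. GENCODE M21 gave symbols to 52133 of 55414 identifiers.

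UMI-corrected counts (435838 to 9149144 per library) were filtered with filterByExpr by group, TMM-scaled and fitted in edgeR 4.0.16 (R 4.3.3) by quasi-likelihood, 18 libraries together, 1 mean per group. Calls were made at a Benjamini-Hochberg adjusted p under 0.05 over 10948 genes, and the SE is the log2 fold change over the root of F. DESeq2 1.42.0 was an alternative. The fit was tested on simulated data in which every gene had the common biological coefficient of variation, 17.8%. The 10 genes had 43.7% to 73.9%, so that test does not show how the fit performs at their spread. Correlations used log2 CPM with a prior count of 2. The labels name no pairing. Members and lists were chosen with earlier results of these data known. The rule for naming covered the 10 genes, up to 4 called members per list and comparison with each list's most abundant gene, the most alike genes, and Chd8. Not every gene that met this rule is described. Lrp1, Hbb-bs, Pf4, Gp9, Pecam1 and Slc1a3, each the most abundant of its list, have no values here. Genes cited for few UMIs, Prtn3, Cebpe in KO and Tlr4 were named outside that rule, after values were seen. The alternatives varied the counts used, scaling, filter, spread estimate, range covariate and libraries left out.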

Additional observations from a re-analysis of the deposited data

Results flagged for a closer look

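Within the 4 female KO libraries, replicate 33 stood far from the others in 2 genes. It held 226 CPM of Ltf, where the next library held 68.2, and the gap was 0.876 of the range of the group, above Dixon's 95% critical value. It held 2030 CPM of S100a8 against 393 in the next library, a gap of 0.843 of the range, above it too. Of 40 gene and group combinations examined, these 2 passed, and chance flags about 1 in 20. This is the library with 435838 UMIs, the fewest of the 18, and with Y-linked UMIs beside Xist. The part of either in the 2 values was not tested.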

How the results depend on the processing

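No paired analysis was possible because every library has its own replicate number and the labels name no pairing. Of 1017 values of single genes under alternatives, 887 kept direction and side of the threshold. KO against WT in females (7 genes called) gave 4 on read counts without UMI correction, where 0.61% of tested genes were called lower. It gave 0 with only the 2 groups, where 0 of 9188 genes were called. It also gave 0 with the range covariate (0.539% called lower) and 0 with robust estimation (1.52%). Leaving out 1 library gave 0 to 10, against 0.403% to 4.24% called lower. Without the highest range of reads per UMI (an alternative chosen after seeing the data), values ran from -2.20 for Padi4 to -0.39 for S100a8. That fit leaves female WT replicate 39 alone in its group. Males (0 called) gave 4 with no filter, 1 with only the 2 groups and 3 in the lowest range. Of tested genes, 1.49%, 5.37% and 4.86% were called lower there. Leaving out 1 male library gave 0 to 0, against 4.44% to 6.09% of tested genes in either direction. The difference between sexes (0 called) gave 7 with no filter, against 0.979% of tested genes. It gave 0 to 0 leaving out 1 library, against 0.0179% to 0.75%. The WT sexes (10 called) gave 6 with the covariate, 6 without the highest range, and 10 to 10. The KO sexes (4 called) gave 9 with no filter and 2 with the covariate, where 2.7% and 1.63% of tested genes were called higher. They gave 2 to 7 leaving out 1 library, against 1.45% to 7.95%. Between the WT sexes, 6.39% to 10.8% of tested genes were called higher leaving out 1 library. Direction reversed in 17 values. S100a8 in females was at 0.077 with the covariate (-0.98 otherwise). In the difference between sexes S100a9 (-0.20) turned to 0.70 with the covariate and 0.57 without the highest range, and ran from -1.07 to 0.55 leaving out 1 library (above 0 without female KO 16 or 1, female WT 30, male KO 36 or male WT 11). There S100a8 (0.10) turned to -1.56 without the 2 libraries under 500000 UMIs (also chosen after seeing the data), and ran from -1.54 without female KO 33 to 1.04 without female WT 30. In males, leaving out 1 library, Padi4 ran from -0.89 to 0.013 and Ngp from -0.60 to 0.036. The causes were not tested. Depth limits Mmp8 (1 UMI at the lowest) and Padi4 (3).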
